A study of Mus musculus with 3 samples.

Results

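The libraries described here came from mouse embryonic fibroblasts (MEFs) on day 6 of reprogramming to pluripotency, after transfection with pooled siRNAs against Kmt2d (siKmt2d). They were chosen by their column names in the count table, 1 from each of 3 sequenced pools, and make up 3 of the 127 libraries used. Their controls were 3 libraries of a non-targeting siRNA (nt) and 5 of a mock transfection (Mock), and 95 libraries of 32 other siRNAs gave a further reference. The 2 Mock columns of a replicate share 1 name, so nothing tells whether they were separate transfections, and each is counted as a library. All of these cells were primary MEFs of wild-type BL6 mice, reprogrammed at passage 2, that carried the lentivirus tet-STEMCCA, which encodes Oct4, Sox2, Klf4 and c-Myc under doxycycline control, together with an rtTA lentivirus that supplies the activator. siRNAs were given at 40 nM with the lipofectamine RNAiMAX. After 24 hours the cells were replated and doxycycline was added, in medium with LIF, ascorbic acid, chiron (an inhibitor of GSK3) and Alk5i (an inhibitor of TGF-beta receptor signalling). The untransfected cells of the time course, Day00 to Day06, carried the same viruses. The number of a library names its sequenced pool, and nothing in the labels says whether equal numbers also share a culture. The paper describes siRNA transfections in triplicate and independent RNA sequencing replicates. The p-values of genes rest on the spread between libraries of a condition, pooled over all 127 libraries, and part of that spread may be technical. A knockdown by siRNA is transient and partial, and cells that took up virus or siRNA were not selected by anything the labels state.

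KMT2D (also MLL4) is a histone methyltransferase which, with its close relative KMT2C, places monomethylation on lysine 4 of histone H3 at enhancers. It works in a large complex that shares WDR5, RBBP5, ASH2L and DPY30 with related methyltransferases, and that also holds the demethylase UTX, PTIP, PA1 and NCOA6. The acetyltransferase p300, the product of Ep300, acts at the same class of enhancers. In reprogramming, MEFs lose the mesenchymal programme of the fibroblast before pluripotency genes come on. The siWdr5 and siEp300 libraries were therefore taken as the nearest relatives among the siRNAs.

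The pool against each target held 3 siRNAs. For Kmt2d, only 2 sequences could be used here, and they are printed to show which part of the transcript they were aimed at. The third is not analysed, so the sites and matches cover only part of what was transfected. The antisense (guide) strands are given first, with their seed (bases 2 to 8 from the 5′ end) in capitals, and the sense strands follow, with the 19 bases that match Kmt2d in capitals.

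siKmt2d 1, antisense: uUAGCUGUuucaauaaggcct
siKmt2d 1, sense: GCCUUAUUGAAACAGCUAAtt
siKmt2d 2, antisense: aAAAUUCCaaccuuguagcgt
siKmt2d 2, sense: GCUACAAGGUUGGAAUUUUtt

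Both sites were found by an exact match on the transcripts of GENCODE vM21 (GRCm38), where Kmt2d (ENSMUSG00000048154.17) lies on the minus strand of chromosome 15 at chr15:98831669-98871204. The first site, chr15:98843357-98843375, is in the coding part of exon 41 of 55. The second, chr15:98832135-98832153, is in the 3′ UTR within exon 55, the last exon. Each site has a GC content of 36.8% and occurs in 2 of the 4 protein-coding transcripts of Kmt2d. The reverse complement of the first seed, ACAGCTA, occurred in the last 1000 bases of 167 of 2965 tested genes with a transcript model (5.63%), among them 1 of 17 genes called lower and 1 of 11 called higher in siKmt2d than in nt. That of the second, GGAATTT, occurred in 246 (8.30%), and in none of the 17 or the 11. On the transcript strand, the median log2 fold change against nt was -0.016 for genes with the first match and -0.00748 for genes without it. It was -0.0615 with the second match and -0.0032 without it. These matches are a description of letters and were not tested.

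The targeted gene could not be followed at this depth. Kmt2d had 0, 0 and 1 counts in siKmt2d replicates 1, 2 and 3, no count in the 3 nt libraries, and 2, 0, 0, 2 and 0 counts in the Mock libraries. A count of 0 allows a share of up to 0.00343% and 0.00325% of the transcripts in siKmt2d replicates 1 and 2, and of up to 0.00374% in nt replicate 2, and such limits cover counting error only. Taking the share that Kmt2d had in all remaining transfected libraries, pool by pool, 2.43 counts were expected in the siKmt2d libraries, so that the 1 count seen is 0.411 of the expected number (exact Poisson 95% interval 0.0104 to 2.29, two-sided exact p = 0.740). Over the 106 transfected libraries Kmt2d summed to 57 counts and 68 of them had none. Neither a reduction of the Kmt2d transcript nor its absence was detectable, and the labels alone name these libraries as Kmt2d knockdowns.

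Depth set much of what could be seen. The siKmt2d libraries held 87602, 92332 and 183133 UMI counts over 9086, 9308 and 11410 genes, against 75100 to 143156 counts in nt and 38925 to 83089 in Mock. Mitochondrially encoded transcripts took 21.6% to 24.0% of the counts in siKmt2d, 22.8% to 26.3% in nt and 22.9% to 28.6% in Mock. Replicates of a group differed by more than counting noise, with chi-square per degree of freedom of 1.51 to 2.34 among the siKmt2d libraries. None was thus a duplicated column, but the value cannot tell separate cultures from technical repeats. Levels below are CPM, for which the counts of the 3013 genes tested are brought to a common total with TMM scaling. On this scale 1 count is worth 13.5, 12.3 and 6.11 CPM in siKmt2d replicates 1, 2 and 3. The 35 fibroblast matrix and surface genes all had counts and summed to 7705 to 9212 CPM in siKmt2d, 7403 to 9059 in nt and 28077 in the median Day00 library. Of 9 leukocyte markers, 5 were at 0 in siKmt2d, nt and Mock, and the list summed to 0 in each siKmt2d library, 32.7 to 59.8 CPM in nt and 0 to 51.6 in Mock. Endothelial markers (5 of 7 at 0) summed to 0 in siKmt2d and to at most 16.3 CPM in nt. Epithelial markers (5 of 22 at 0) summed to 214 to 258 CPM in siKmt2d, 188 to 200 in nt and 77.4 to 309 in Mock. The part of these markers in the results was not tested. The RNA was harvested in bulk, so fewer cells of a type and less RNA per cell cannot be told apart.

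Against the non-targeting siRNA, the siKmt2d libraries had higher RNA of Hmga2, of the imprinted neighbours Igf2 and H19 and of the mesenchymal transcription factor Tcf4, of which Hmga2 was also called higher than Mock. They had lower RNA of the nucleophosmin (Npm1) and Rps14 sequence families, against Mock as well, and of Pgk1 and Bnip3, which were not called against Mock. In all, 29 of 3013 genes were called at an adjusted p under 0.05, which is 0.962% of those tested. Of these, 11 rose (0.365%) and 18 fell (0.597%), and the median log2 fold change over all tested genes was -0.01. Under RLE scaling 35 genes were called (1.16%), 20 higher and 15 lower, so that the balance of the directions turned with the scaling, while none of the 29 genes changed sign. Without replicate 2 the count was 15 and without replicate 3 it was 10. The calls of 7 genes held without each replicate in turn: Hmga2 among those that rose, and Rps14, Pgk1, Gm6204, Gm17060, Gm5611 and Gm14776 among those that fell. Without the replicate block, however, Hmga2 (adjusted p = 0.379) and Pgk1 (adjusted p = 0.221) were no longer called, while the other 5 were. Among the 7 genes, Rps14 and Gm6204 share 1 sequence family, and Gm17060 and Gm5611 share that of Npm1, so their calls may not be separate.

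**Figure D1:**
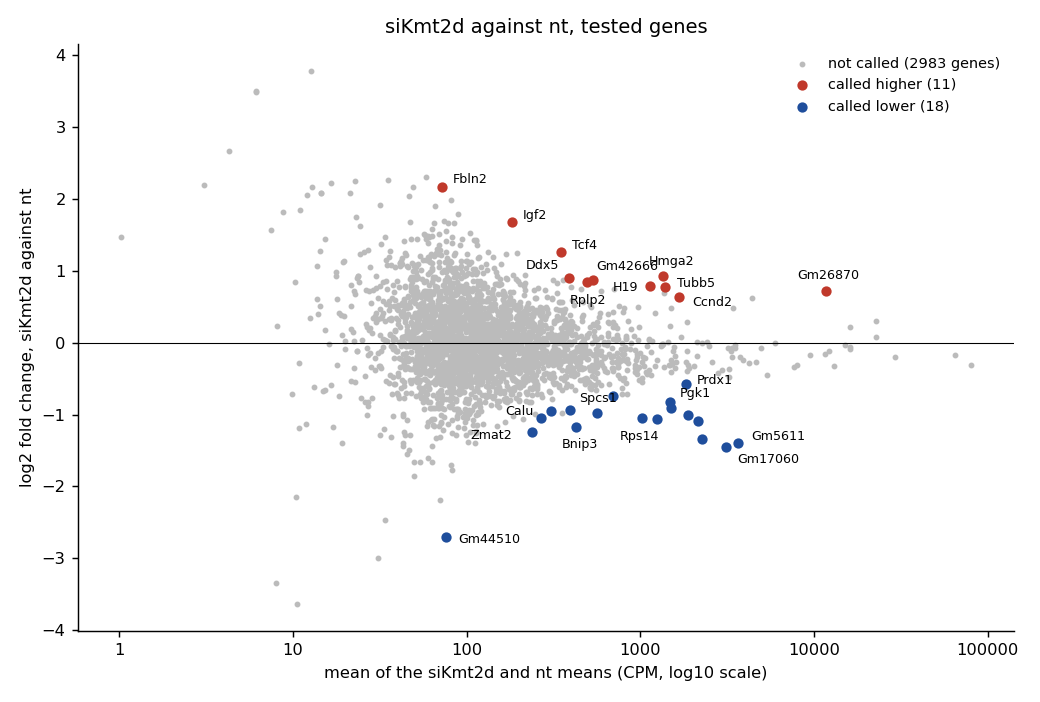
The log2 fold change of siKmt2d against nt (vertical axis) is plotted against the mean level in CPM on a log axis (horizontal axis) for the tested genes, 1 point per gene, with called genes in colour and 1 gene without counts in both groups left out. The 11 genes called higher and 18 called lower stand at both sides of a cloud whose median is -0.01, and most are well above the lowest levels, where the cloud is widest.

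Hmga2 encodes a chromatin protein that bends DNA and is typical of embryonic and growing cells. It lies on chromosome 10 at chr10:120361275-120476469. It stood at 2279, 1757 and 1308 CPM in siKmt2d and at 1016, 1077 and 703 CPM in nt. Every siKmt2d library was above every nt library, a lack of overlap seen in 13.4% of all tested genes (and in 7.2% against Mock). The log2 fold change was 0.93 ± 0.188 (SE, n = 3 and 3, adjusted p = 0.000488). Hmga2 was also called against Mock (0.60, adjusted p = 0.0184) and against the other siRNAs (0.60, adjusted p = 0.000528). In Mock it ran from 943 to 1701 CPM, a range that the siKmt2d range overlaps. Its siKmt2d mean was the second highest of 33 siRNA means, and in the time course Hmga2 fell from a mean of 2860.1 CPM on Day00 to 1052 CPM on Day06.

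Igf2, an imprinted fetal growth factor, and H19, the imprinted noncoding RNA beside it on chromosome 7, both rose. Igf2 (chr7:142650766-142666816) was at 269.7, 307 and 257 CPM in siKmt2d and at 99.9, 89.7 and 73.5 CPM in nt, with no overlap. Its log2 fold change was 1.68 ± 0.374 (adjusted p = 0.00253). Mock reached both levels, from 68.7 to 317 CPM, and the difference from Mock was 0.58 (adjusted p = 0.350). Without replicate 2 or 3, the adjusted p of Igf2 against nt was 0.0545 and 0.121. H19 (chr7:142575529-142578143) was at 1214, 2249 and 905 CPM in siKmt2d and at 849, 1092 and 539 CPM in nt. These ranges overlap, although in each replicate the siKmt2d library was the higher, and the log2 fold change of 0.80 ± 0.222 had an adjusted p of 0.0441 that rose to 0.480 without replicate 2 and 0.129 without replicate 3. Against the other siRNAs, Igf2 (0.75, adjusted p = 0.0279) and H19 (0.54, adjusted p = 0.0175) were both called higher. Their nt means lay above only 2 and 9 of the 33 siRNA means.

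Tcf4, a basic helix-loop-helix factor of mesenchymal cells and not the Wnt factor of the similar name, was at 579.8, 369 and 544 CPM in siKmt2d and at 133, 269 and 212 CPM in nt. The groups did not overlap and the log2 fold change was 1.26 ± 0.272 (adjusted p = 0.00161). Without replicate 1 or 3 the adjusted p was 0.116 and 0.123. In the time course Tcf4 was higher on Day06 (mean 407.9 CPM) than on Day00 (219 CPM, log2 fold change 0.96, adjusted p = 0.00962). Mock overlapped both groups, from 124 to 439 CPM, with a difference of 0.72 (adjusted p = 0.0744). Fbln2 encodes fibulin 2, a glycoprotein of the extracellular matrix, at chr6:91212455-91272540. It was at 175, 86.0 and 97.8 CPM in siKmt2d and at 33.3, 14.96 and 24.5 CPM in nt, the largest change among the genes called higher (2.17 ± 0.592, adjusted p = 0.0356). Mock held it at 34.3 to 144 CPM, close to siKmt2d (0.31, adjusted p = 0.802), and the nt mean lay above only 2 of the 33 siRNA means. The adjusted p of Fbln2 against nt was 0.205 to 0.216 when any replicate was left out.

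The beta-tubulin gene Tubb5 (chr17:35833921-35838306) was at 1915, 1905 and 1430.4 CPM in siKmt2d and at 1082, 1062 and 874 CPM in nt. The groups did not overlap (0.78 ± 0.170, adjusted p = 0.00172), and it was also called against Mock (0.73, adjusted p = 0.000588), while without replicate 2 the adjusted p against nt was 0.138. Ccnd2, which encodes cyclin D2 of the G1 phase, was at 2225, 1905 and 1950.0 CPM in siKmt2d and at 1665, 1167 and 1127 CPM in nt. Again the ranges were apart (0.64 ± 0.167, adjusted p = 0.0224), but without replicate 2 or 3 the adjusted p was 0.246 and 0.249. The RNA helicase gene Ddx5 was at 579.8, 492 and 452 CPM in siKmt2d and at 283, 284 and 245 CPM in nt (0.90 ± 0.238, adjusted p = 0.0266). For Ddx5 siKmt2d had the highest and nt a lower mean than each of the 33 siRNAs, and its adjusted p was 0.170 to 0.205 when any replicate was left out and 0.0804 with its near-identical copy added. The remaining genes called higher were Rplp2, of the ribosomal stalk (0.84, adjusted p = 0.0205), the lincRNA Gm26870 (0.72, adjusted p = 0.0205) and the processed pseudogene Gm42666 (0.87, adjusted p = 0.0211), and each lost its call without at least 1 replicate, with adjusted p up to 0.543, 0.184 and 0.286. Summed with their copies, the families of Rplp2 (0.53, adjusted p = 0.134) and of Gm42666 (0.00196, adjusted p = 0.999), whose parent is Rpl6, were not called.

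Near-identical copies matter for reading the genes that fell. A transcript end with a near-identical copy elsewhere was found for 12 of the 18 genes called lower and 4 of the 11 called higher, against 1251 of the 3013 tested (41.5%), and for such genes the counting could divide reads between copies. The copies were therefore also summed before the fit, an alternative chosen after the data were seen, and 23 of 2542 genes and families were then called (0.905%), 7 higher and 16 lower. In the same fit 4.09% were called against Mock and 1.22% against the other siRNAs.

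Processed pseudogenes of Npm1, the gene of nucleophosmin, were among the genes that fell. Nucleophosmin is an abundant nucleolar protein of ribosome assembly and histone handling. Gm17060 (chr6:49424061-49424884) was at 2211, 1684 and 1186 CPM in siKmt2d and at 4896, 4906 and 3807 CPM in nt. No siKmt2d library came near an nt library, and the log2 fold change of -1.45 ± 0.187 had an adjusted p of 6.23e-10, the lowest of the comparison. Its relatives Gm5611 (-1.40, adjusted p = 1.88e-09) and Gm14681 (-1.09, adjusted p = 6.71e-06) fell with it, the latter with an adjusted p of 0.0558 without replicate 3. Npm1 itself had a mean of 4558 CPM in siKmt2d and 6234 CPM in nt, with a log2 fold change of -0.45 ± 0.136 (adjusted p = 0.0704), and against Mock it fell by 0.45 on the log2 scale (adjusted p = 0.0148).

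Summed over Npm1 and its 5 copies, the family was at 12135, 9290.0 and 8570.0 CPM in siKmt2d and at 19467, 20011 and 18446 CPM in nt. The Mock libraries ran from 13173 to 19330.3 CPM, so siKmt2d lay under every nt and every Mock library. The log2 fold change was -0.98 ± 0.154 against nt (adjusted p = 1.14e-06) and -0.75 against Mock (adjusted p = 5.24e-05). Against the other siRNAs it was -0.32 (adjusted p = 0.152). The nt mean stood above all 33 siRNA means, siKmt2d ranked 30 from the highest of them, and siWdr5 was the lowest with a mean of 5976 CPM. In the untransfected time course the family had means of 1763 CPM on Day00 and 4080.3 CPM on Day06.

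Rps14, a protein of the small ribosomal subunit, was the only one of 70 tested genes of the ribosomal protein list called against nt, a list without the stalk gene Rplp2 given above. It was at 674, 664 and 642 CPM in siKmt2d and at 1632, 1211 and 1291 CPM in nt, and Mock ran from 1142 to 1682 CPM. All siKmt2d libraries were under all control libraries, and they differed little among themselves (mean 659.9 ± 16.5 CPM, SD, n = 3). The log2 fold change was -1.05 ± 0.179 against nt (adjusted p = 6.71e-06), -1.07 against Mock (adjusted p = 1.03e-06) and -0.82 against the other siRNAs. Its processed pseudogenes Gm6204 (-1.07, adjusted p = 1.73e-06) and Gm5805 (-0.82, adjusted p = 0.000545) were called in the same direction, Gm5805 with an adjusted p of 0.0659 without replicate 3. The family summed to 2616, 2384 and 2616 CPM in siKmt2d, 5529, 4517 and 4918 CPM in nt and 3376 to 5768 CPM in Mock. On that sum, siKmt2d was lower by -0.99 ± 0.157 than nt (adjusted p = 1.14e-06), by -0.96 than Mock (adjusted p = 5.88e-07) and by -0.70 than the other siRNAs (adjusted p = 2.04e-05), and only 1 siRNA mean, that of siWdr5, was lower. In contrast with Npm1, the nt mean of this family was not at an extreme, being above 26 of the 33 siRNA means.

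Pgk1 encodes phosphoglycerate kinase of glycolysis (chrX:106187100-106203699). It was at 836, 1192 and 1094 CPM in siKmt2d and at 1565, 2273 and 2026 CPM in nt, with no overlap, and fell by 0.90 on the log2 scale (SE 0.178, adjusted p = 0.000327). In Mock it stood at 951 to 1343 CPM, the level of siKmt2d (-0.20, adjusted p = 0.641), and the nt mean was above all 33 siRNA means. Bnip3, a mitophagy receptor induced by low oxygen (chr7:138890836-138909519), was at 283, 356 and 171 CPM in siKmt2d and at 616, 688 and 458 CPM in nt. These ranges were apart (-1.17 ± 0.265, adjusted p = 0.00314), though without replicate 3 the adjusted p was 0.141. Mock overlapped both groups, from 223 to 692 CPM.

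Zmat2, Spcs1, Calu and Prdx1 fell with less support. The zinc finger gene Zmat2 was at 202, 111 and 110.0 CPM in siKmt2d and at 399.7, 344 and 253 CPM in nt (-1.24 ± 0.312, adjusted p = 0.01603), and was also lower than Mock (-1.25, adjusted p = 0.00407). Spcs1, a subunit of the signal peptidase complex of the endoplasmic reticulum (chr14:30999826-31001672), was at 310.1, 197 and 287 CPM in siKmt2d and at 649.5, 479 and 449 CPM in nt. It fell against nt (-0.93 ± 0.247, adjusted p = 0.0266), Mock (-1.29, adjusted p = 1.43e-05) and the other siRNAs (-0.80, adjusted p = 0.00403). Calu, a calcium-binding protein of the secretory pathway, was at 202, 159.7 and 238 CPM in siKmt2d and at 483, 359 and 384 CPM in nt (-0.95 ± 0.253, adjusted p = 0.0266). The peroxide-reducing enzyme gene Prdx1 was at 1483, 1352 and 1577 CPM in siKmt2d and at 1898, 1809.7 and 2867 CPM in nt (-0.58 ± 0.162, adjusted p = 0.0442). In all 4 genes the groups were apart, yet each lost its call when some replicate was left out, with adjusted p up to 0.220 for Zmat2, 0.246 for Spcs1, 0.337 for Calu and 0.647 for Prdx1. Against Mock, Prdx1 was also called lower, and Calu (mean of 316 CPM in Mock) was not.

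The rest of the genes called lower were Gm14776 (-1.34, adjusted p = 5.19e-08), Gm12857 (-1.05, adjusted p = 0.0360) and Gm10036 (-0.74, adjusted p = 0.0441), all processed pseudogenes, with RP24-389J11.1 (-0.999, adjusted p = 0.000392), Gm26384 (-0.98, adjusted p = 0.00173) and Gm44510 (-2.71, adjusted p = 0.00314). Gm14776 was at 1497, 1389 and 1027 CPM in siKmt2d and at 3347, 3245 and 3104 CPM in nt. That gene was clear of nt and, at 1903 CPM or more, of Mock in every library. Gm44510 was at 0, 24.6 and 24.5 CPM in siKmt2d against 149.9, 149.6 and 106 CPM in nt, and lies antisense to Rps12l1, and because the counting is not stated to use strand, its reads cannot be told apart from those of Rps12l1. The same limit holds for 9 of the 29 called genes, which overlap a gene on the opposite strand: Gm44510, Igf2, Hmga2, H19, Ccnd2, Bnip3, Calu, Spcs1 and Gm26870, the last of which overlaps 6 such genes. Apart from Gm14776, these calls did not hold without each replicate, with adjusted p of up to 0.0723 for RP24-389J11.1, 0.119 for Gm44510, 0.199 for Gm26384, 0.230 for Gm12857 and 0.415 for Gm10036.

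**Figure D2:**
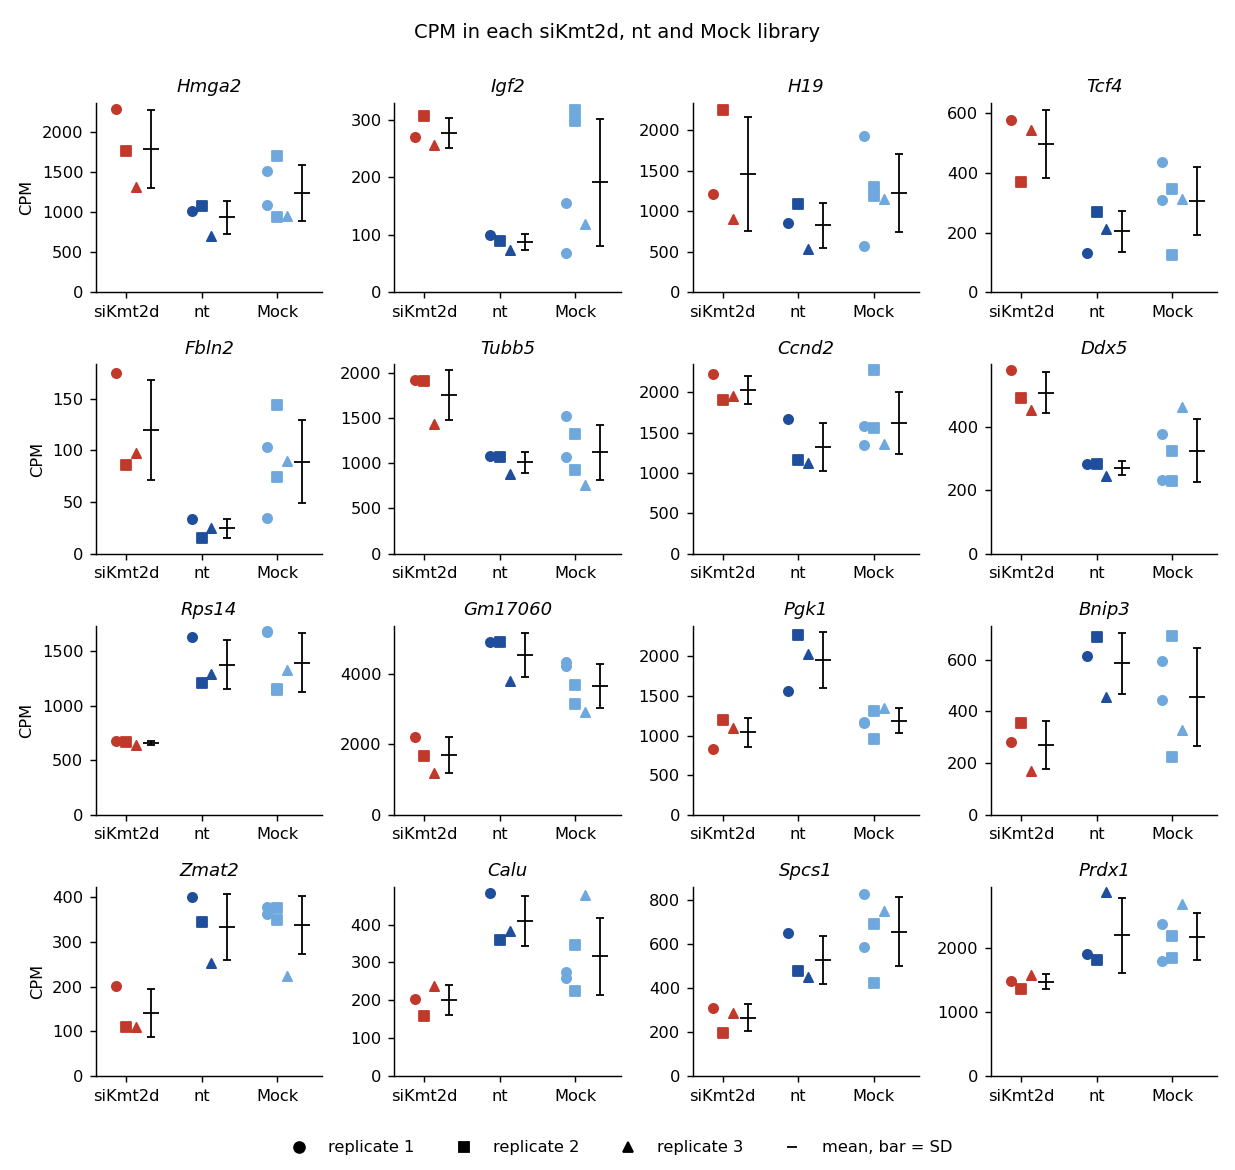
CPM of 16 genes in each siKmt2d, nt and Mock library, 1 panel per gene with its own axis; the marker shape gives the replicate, and the bar with its whiskers gives the mean ± SD of the group. Hmga2, Igf2 and Rps14 show siKmt2d apart from nt in all 3 replicates, Rps14 is also apart from all 5 Mock libraries, and for Pgk1 the Mock libraries lie with siKmt2d.

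The nt and Mock libraries are different controls, and siKmt2d was set against each of them and against the mean of the other 32 siRNAs. The comparisons share the siKmt2d libraries, so their values stand side by side and do not repeat each other. Against Mock 176 genes were called (5.84%), 44 higher (1.46%) and 132 lower (4.38%), with a median over all genes of 0.02. Against the other siRNAs 74 were called (2.46%), 29 higher (0.962%) and 45 lower (1.49%), with a median of 0.04. Between the controls themselves, 47 of 3013 genes were called, 31 higher and 16 lower in Mock than in nt. All 11 genes called higher than nt were also higher than Mock in sign, and 3 of them were called (Gm42666, Hmga2 and Tubb5). All 18 genes called lower than nt were lower than Mock in sign, and 13 were called. Against the other siRNAs the signs were again the same for all 29, with 6 of the 11 and 6 of the 18 called. Of the 29, 8 genes were called in 1 direction against nt, Mock and the other siRNAs alike: Hmga2 and Gm42666 higher, and Rps14, Gm5805, Gm6204, Gm17060, Gm14776 and Spcs1 lower. Among these, Rps14, Gm5805 and Gm6204 share 1 sequence family. The summed family of Gm42666 was not called against nt, as given above.

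**Figure D3:**
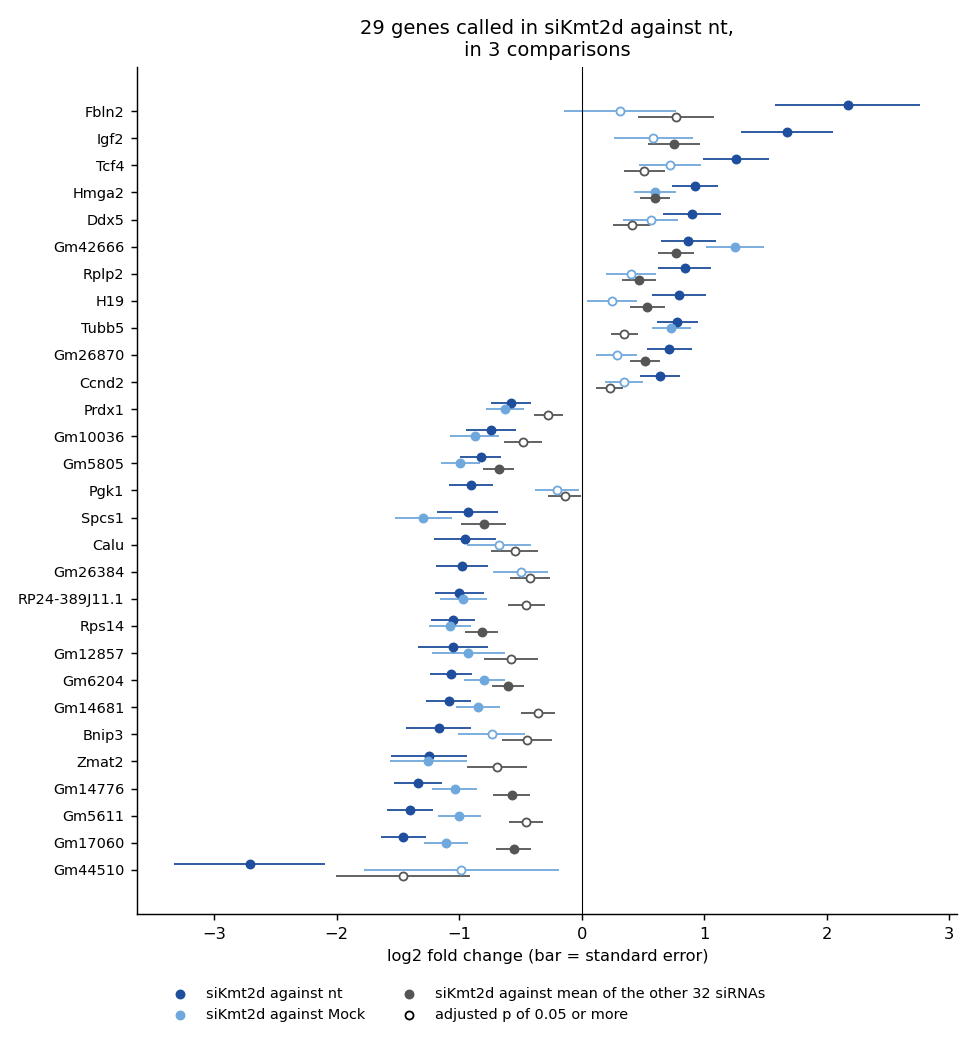
Log2 fold change ± SE of siKmt2d against nt, Mock and the other 32 siRNAs for the 29 genes called against nt, 1 row per gene; filled points have an adjusted p under 0.05 and open points do not. All points of a gene lie on 1 side of 0, Pgk1 and Fbln2 move close to 0 against Mock, and Rps14 stays near -1.07 there.

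Placing siKmt2d among the siRNAs shows which end of each comparison was unusual. For 9 of the 11 genes called higher, siKmt2d was among the 5 highest of the 33 siRNA means, against 10.9% of all tested genes. For 7 of the 11, the nt mean was above no more than 4 siRNA means, against 8.99% of all genes. For 11 of the 18 genes called lower, siKmt2d was among the 5 lowest siRNA means (9.86% of all genes), and for 13 of the 18 the nt mean was above at least 29 of them (11.3% of all genes). These shares follow in part from the choice of the genes by the difference between siKmt2d and nt. The nt mean was above all 33 siRNA means for 5 genes, namely Pgk1, Zmat2, Gm17060, Gm5611 and Gm14776.

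**Figure D4:**
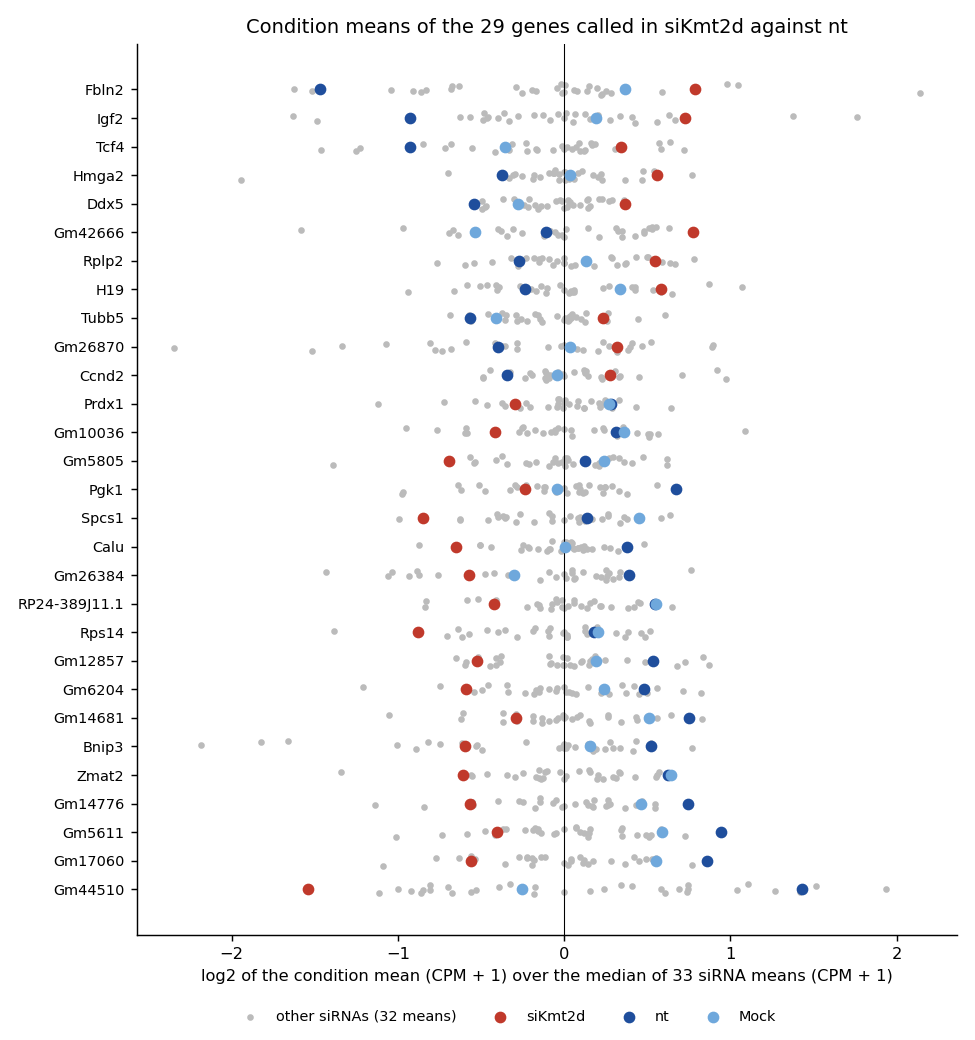
Mean level of each condition relative to the median of the 33 siRNA means, on a log2(CPM + 1) scale, for the genes called against nt; grey points are the other siRNAs and coloured symbols are siKmt2d, nt and Mock. For Ddx5 siKmt2d is the highest and nt the lowest symbol, and for Pgk1 nt lies above every siRNA while siKmt2d lies within their range.

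Against Mock, the genes with the largest differences held few counts in the shallow Mock libraries. Lxn, an inhibitor of carboxypeptidases, had 6, 6 and 20 counts in siKmt2d and 3 in all of Mock, a ratio of counts of 7.76 (exact 95% counting interval 2.43 to 39.6, edgeR adjusted p = 0.00653). Sec23a, a coat protein of vesicles that leave the endoplasmic reticulum, had 29 counts against 3, a ratio of 7.03 (2.18 to 36.1, adjusted p = 0.0148). Crim1, a membrane protein that binds bone morphogenetic proteins, was at 148, 122.9 and 85.6 CPM in siKmt2d and at 0 to 34.3 CPM in Mock (2.18 ± 0.616, adjusted p = 0.0151). The siKmt2d libraries were above all Mock libraries for each of the 3. Against nt neither Lxn (44.9 to 66.6 CPM in nt, 0.70, adjusted p = 0.625) nor Sec23a (49.96 to 81.7 CPM, 0.45, adjusted p = 0.821) was called, and the Mock mean of both was below all 33 siRNA means. Appbp2 (2.17, adjusted p = 0.0480) and Wdr77 (2.12, adjusted p = 0.0385), a partner of the methyltransferase PRMT5, followed, but in the fit with copies summed neither was called (adjusted p = 0.0595 and 0.0926). Crim1 was at 50.0 to 74.8 CPM in nt, nearer to siKmt2d (0.79, adjusted p = 0.544), and its siKmt2d mean was called higher than the other siRNAs as well (1.28, adjusted p = 0.0110).

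At the lower end against Mock stood Gm6063, with 2 counts in siKmt2d and 13 in Mock (8.94 times fewer, interval 2.02 to 81.6, adjusted p = 0.0204), and E030024N20Rik, with 3 and 17 counts (7.79 times fewer, interval 2.25 to 41.5, adjusted p = 0.00987). The Mock library of replicate 3 held 12 of the 17 counts of E030024N20Rik, and without it the ratio was 3.34. Both are processed pseudogenes with many near-identical copies, and the sums over their families differed from Mock by less (-0.64, adjusted p = 0.0235, for the family with Gm6063 and -1.48, adjusted p = 0.00022, for that with E030024N20Rik). Mid1, a microtubule-bound ubiquitin ligase, was at 13.5, 12.3 and 18.3 CPM in siKmt2d and at 24.8 to 137 CPM in Mock (-2.42 ± 0.754, adjusted p = 0.0324). These groups did not overlap, but nt lay at 0 to 49.02 CPM (-0.74, adjusted p = 0.841) and the Mock mean was above 31 of the 33 siRNA means. For E030024N20Rik nt was at 0 to 24.5 CPM (-0.71, adjusted p = 0.867), and for Gm6063 at 16.7 to 89.9 CPM (adjusted p = 0.0605). 1110059E24Rik was at 121, 172 and 79.5 CPM in siKmt2d, 188 to 299 CPM in nt and 239 to 584 CPM in Mock (-1.69 ± 0.324 against Mock, adjusted p = 4.7e-05). For that gene siKmt2d was below every library of both controls, while its difference from nt was not called (-1.02, adjusted p = 0.158). The mitochondrial tRNA mt-Td also fell (-1.79, adjusted p = 0.0295), with overlapping ranges. Most of these calls were not stable, since 7 of the 10 genes named against Mock lost theirs without replicate 1 and 8 of 10 without replicate 2, and without replicate 3, where 7 could be tested, 5 did.

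Against the other siRNAs, siKmt2d had its strongest rise in a pair of related transcripts. C330021F23Rik (chr8:3567990-3584939) was at 94.4, 135 and 159 CPM in siKmt2d, and the other 32 siRNA means ran from 3.16 to 73.8 CPM with a median of 31.98. The siKmt2d mean was the highest of the 33 (2.17 ± 0.359, adjusted p = 1.13e-05). Gm2174 on the X chromosome, a near-identical copy of part of it, was at 175, 111 and 122 CPM, with other siRNA means of 8.28 to 85.3 CPM (2.05 ± 0.366, adjusted p = 4.23e-05). Summed with the copy they share, the family was at 324, 295 and 324 CPM in siKmt2d, 83.3, 179.5 and 65.4 CPM in nt and 25.8 to 481 CPM in Mock. No nt library reached siKmt2d but 1 Mock library did, and the sum was called against the other siRNAs (1.97 ± 0.277, adjusted p = 4.24e-08) and not against nt (1.57, adjusted p = 0.0651) or Mock (1.02, adjusted p = 0.188).

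Gap43, a protein of growing axon tips and membranes, was at 162, 197 and 104 CPM in siKmt2d, and no other siRNA mean passed 136 CPM (1.33 ± 0.328, adjusted p = 0.00850). Naa40, which acetylates the N termini of histones H4 and H2A, was at 67.4, 159.7 and 36.7 CPM, with a median of 26.3 CPM over the other siRNAs (1.39 ± 0.422, adjusted p = 0.0491). For both genes siKmt2d had the highest of the 33 means. At the other end, siKmt2d had the lowest of the 33 means for Gstm1, a glutathione transferase, at 13.5, 12.3 and 30.6 CPM (-1.75 ± 0.517, adjusted p = 0.0401), and for Rpl34 (-1.41, adjusted p = 0.00105), Rangap1 (-1.17, adjusted p = 0.0491) and 2700060E02Rik (-0.85, adjusted p = 0.0314). Rpl34 has near-identical copies, and its family was also called lower than the other siRNAs (-0.78, adjusted p = 0.0343). With copies summed, 4 of 9 genes named here lost their call, namely Gstm1 (adjusted p = 0.0525), Naa40 (0.0711), Rangap1 (0.0647) and 2700060E02Rik (0.0509). Without replicates 1, 2 and 3, 5 of 9, 6 of 9 and 5 of 7 of the genes named here that could be tested were no longer called.

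WDR5 is a subunit that the KMT2D complex shares with other H3K4 methyltransferase complexes, and the siWdr5 libraries differed from siKmt2d in far more genes than nt did. Of the 3013 genes, 409 were called (13.6%), 212 higher (7.04%) and 197 lower (6.54%) in siKmt2d. Under RLE scaling 406 were called (13.5%), 145 higher and 261 lower (115 and 229 by DESeq2), with the median of all genes 0.12 lower on the log2 scale, so the balance of directions depends on the scaling. Among the genes lower in siKmt2d, Sfrp1, a secreted antagonist of Wnt, was at 283, 159.7 and 147 CPM in siKmt2d and at 1334, 1606 and 1424 CPM in siWdr5 (-2.96 ± 0.241, adjusted p = 9.09e-24). The groups were far apart, and nt stood with siKmt2d at 183 to 212 CPM. Of 28 tested fibroblast genes 15 were lower in siKmt2d than in siWdr5 and none was higher, for example Col1a1 (-2.61, adjusted p = 8e-18), Thbs1 (-1.89) and Timp3 (-1.70), with a median of -1.40 against 0.01 over all genes. Igfbp4 had 3 counts in siKmt2d and 35 in siWdr5 (14.8 times fewer, interval 4.66 to 75.1), and Lgals3bp had 1 and 12 (15.2 times fewer, interval 2.25 to 649), with 8 of the 12 in replicate 2 of siWdr5 and a ratio of 6.99 without that library. At the upper end, C330021F23Rik had 44 counts in siKmt2d and 1 in siWdr5, a ratio of 34.8 (5.92 to 1404, adjusted p = 3.61e-05), Gm2174 had 42 and 3, a ratio of 11.1 (3.53 to 55.8), and Apela, a peptide ligand of early embryonic cells, had 19 and 1, a ratio of 15.01 (2.39 to 624, adjusted p = 0.00548). Among 70 tested ribosomal protein genes, 17 were higher in siKmt2d than in siWdr5 and none was lower.

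The siEp300 libraries were closer to siKmt2d, with 60 genes called (1.99%), 23 higher (0.763%) and 37 lower (1.23%). Gm26870 was at 17502, 13198 and 12922 CPM in siKmt2d and at 5375, 3829.8 and 3023 CPM in siEp300 (1.86 ± 0.192, adjusted p = 2.14e-15). No library of the groups overlapped, and nt stood between at 7747 to 10358 CPM. Means of the other siRNAs ran from 2292 (siBard1) to 21705 CPM (siPrkdc) with a median of 11579. The siKmt2d mean of Gm26870 ranked 8 from the highest of 33, and that of siEp300 was 4076 CPM. C330021F23Rik had 44 counts against 2 in siEp300, a ratio of 24.1 (6.29 to 205, adjusted p = 6.1e-05), or 9.86 without siEp300 replicate 3. Gm2174 (3.34, adjusted p = 0.000534), Gap43 (2.27, adjusted p = 0.00730) and H19 (1.02, adjusted p = 0.000719) were higher in siKmt2d too. Myl9, a myosin light chain of smooth muscle, was at 53.9, 12.3 and 12.2 CPM in siKmt2d and at 128.7, 56.7 and 158 CPM in siEp300 (-2.37 ± 0.599, adjusted p = 0.0112). Acta2 (-1.43, adjusted p = 0.000192), Cnn1 (-2.35, adjusted p = 0.0342) and Tpm2 (-2.15, adjusted p = 0.0466) were also lower, so that 4 of 17 contractile genes were called lower and none higher, among 37 genes called lower in all. The protease gene Adamts5 was lower as well (-2.47, adjusted p = 0.0210), and Igfbp4 had 3 counts against 28 (8.51 times fewer, interval 2.63 to 43.8), or 5.21 times fewer without siEp300 replicate 3. Of 28 fibroblast genes 6 were lower, led by Igfbp4 and Col1a1 (-1.72, adjusted p = 3.82e-07), and Thy1, a surface antigen of fibroblasts, was higher (1.31, adjusted p = 0.000719).

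Within the KMT2C and KMT2D complex, 2 of 10 genes were deep enough to test. Ash2l (1.08, adjusted p = 0.622) and Dpy30 (-0.49, adjusted p = 0.608) were not called against nt, and Pagr1a, which encodes PA1, was at 0 in siKmt2d, nt and Mock. The whole list summed to 405, 295 and 330.1 CPM in siKmt2d, 283, 359 and 384 CPM in nt and 323 to 448 CPM in Mock, with overlapping ranges. Of the other H3K4 enzymes and enhancer coactivators 4 of 16 were tested and none was called against nt or Mock, while Crebbp, the relative of p300, was higher than in the other siRNAs (1.13, adjusted p = 0.0314). The 3 tested neighbours of Kmt2d on chromosome 15 gave no call and had a median of -0.15.

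The mesenchymal transcription factors were the listed group with the highest median. All 9 tested members had positive log2 fold changes against nt (49.3% over all genes), with a median of 0.86 against -0.01 over all genes, and Tcf4 alone was called higher (1 of 9, against 0.365% over all genes). Summed over the 15 listed genes they were at 1888, 1696 and 1919 CPM in siKmt2d, 733, 927 and 1136 CPM in nt and 1064 to 1755 CPM in Mock. The siKmt2d sums were above all nt sums and within reach of Mock, against which the median was 0.52 with 6 of 9 positive and no call. The nt sums were low beside the other siRNAs (580 to 2749 CPM, median 1426) and Day06 (1410 to 1704 CPM). The siKmt2d sum ranked 6 from the highest of the 33 siRNAs. Against the other siRNAs the median was 0.32, with all 9 positive and no call. Prrx1, a homeobox factor of limb and connective tissue, was at 579.8, 356 and 306 CPM in siKmt2d and at 183, 239 and 212 CPM in nt, which did not pass the test (0.87, adjusted p = 0.0820). The Id genes, which encode dimerisation inhibitors of such factors, gave 0.86 for Id1, 0.86 for Id2 and 1.12 for Id3, with adjusted p of 0.457, 0.185 and 0.202.

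Contractile genes had a median of 0.60 over 17 tested, 15 of them positive, and no call. Acta2, smooth muscle actin, was at 135, 111 and 232 CPM in siKmt2d and at 83.3, 59.8 and 57.2 CPM in nt. The groups were apart, but the difference was not called (1.41, adjusted p = 0.0837). Fibroblast matrix and surface genes had a median of 0.39 over 28 tested with Fbln2 called higher, and their members did not move as one. Sparc (0.39, adjusted p = 0.515) and Vim (0.51, adjusted p = 0.200) had positive values, Col1a1 (0.06, adjusted p = 0.982) was near 0, and the proteoglycans Dcn (-0.99, adjusted p = 0.0820) and Lum (-0.97, adjusted p = 0.159) were negative. Against Mock, Dcn (-1.32, adjusted p = 0.000791) and Lum (-1.12, adjusted p = 0.0239) were called lower.

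All 9 tested glycolysis genes had negative log2 fold changes against nt (50.7% over all genes), with a median of -0.22 and Pgk1 alone called. The share called lower over all genes, 0.597%, is the background for this and the next counts. The list summed to 4099, 4866 and 4444 CPM in siKmt2d, 6178, 6730 and 5784 CPM in nt and 4806 to 5765 CPM in Mock, so that siKmt2d was under every nt library and overlapped Mock. Of the low-oxygen response, 4 genes were tested, with a median of -0.59 and Bnip3 called. Its sums of 701, 651 and 587 CPM in siKmt2d were below the 825 to 1331 CPM of nt and met the 645 to 1153 CPM of Mock. Among 12 antioxidant and metal response genes Prdx1 was called lower and the median was -0.13.

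Among the ribosomal protein genes of the list, 17 of 70 tested had positive log2 fold changes against nt, with a median of -0.26 and Rps14 called. The list holds genes named Rpl or Rps with a number, and so leaves out Rplp2, which was called higher. Against Mock 13 of 70 were lower (4.38% over all genes) and none higher, among them Rpl10a (-0.98, adjusted p = 9.69e-09), Rps7 (-0.99, adjusted p = 5.61e-07) and Rpl7 (-0.72, adjusted p = 1.13e-05), and against the other siRNAs 10 were lower (1.49% over all genes) and none higher. The list summed to 42608, 38401 and 53847 CPM in siKmt2d and to 48053 to 61736 CPM in nt, with overlap. Many of these genes have near-identical copies. Mock itself was called higher than nt for Rpl10a (0.55, adjusted p = 0.00771) and Rps7 (0.66, adjusted p = 0.00508), and not for Rpl7 (0.44, adjusted p = 0.0515). Mitochondrially encoded genes gave no call against nt (17 tested, median -0.15), but 8 were lower than in Mock (4.38% over all genes), such as mt-Co3 (-0.71) and mt-Co2 (-0.80), and mt-Atp6, mt-Co2, mt-Co3 and mt-Cytb were lower than in the other siRNAs. The share of mitochondrial counts also ran lower in siKmt2d than in Mock, with overlapping ranges as given above, and its part in these calls was not tested. Mock was called higher than nt for mt-Co3 (0.56, adjusted p = 0.000831) and not for mt-Co2 (0.37, adjusted p = 0.283).

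Growth, stress and lineage lists gave few calls. Mitosis genes had a median of 0.12 over 21 tested with Tubb5 called, and no gene was called against nt among 7 S phase, 13 p53 target, 12 ATF4 and endoplasmic reticulum stress, 3 interferon-stimulated, 11 sterol synthesis, 11 immediate early and heat shock, 3 adipogenic and myogenic or 3 keratinocyte genes. Of the pluripotency list, 2 of 25 genes were deep enough and neither was called. It summed to 229, 283 and 244 CPM in siKmt2d, 294 to 399.7 CPM in nt and 298 to 465 CPM in Mock, so each siKmt2d sum lay under each control sum, although Zfp42, Dppa4, Tfcp2l1, Tcl1 and Prdm14 were at 0 in all of them. The siKmt2d sum ranked 16 from the highest of the 33 siRNAs, with a median of 244.5 CPM beside 246.7 CPM for the other siRNAs and 225 CPM on Day06. No test was made on that sum.

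Likeness to the ends of the time course was read from the genes called between Day06 and Day00, 321 higher and 347 lower (668 in all, 22.2%). The time score of a library is the mean log2 CPM of the first set minus that of the second. Its mean was -1.44 on Day00 and 1.21 on Day06, but it did not rise at every step, with 0.0922 on Day01, 0.238 on Day02 and -0.126 on Day03. The siKmt2d libraries scored 1.17, 1.15 and 1.31 (mean 1.21 ± 0.0871, SD, n = 3). Those of nt scored 1.49 ± 0.146 (n = 3) and those of Mock 1.39 ± 0.145 (n = 5), with Mock running from 1.25 to 1.56. The siKmt2d scores were all under the nt scores and overlapped those of Mock. Within each replicate siKmt2d was below the mean of its controls, and the mean difference was -0.24 (two-sided exact permutation within replicates, p = 0.0208, the smallest that 48 arrangements can give). With the Mock columns of a replicate averaged and counted once, chosen after the data were seen, it was -0.24 (exact permutation p = 0.0370, the smallest that 27 arrangements can give). Set against nt alone it was -0.28 (exact p = 0.250, the smallest possible) and against Mock alone -0.21 (exact p = 0.111, where 0.0556 is the smallest possible). With genes taken from Day06 against Day03 it was -0.18 (exact permutation p = 0.0625), and without any 1 replicate it was -0.21 to -0.27, with p of 0.0625 to 0.0833 that are the smallest such designs allow.

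The 2 gene sets behind the score were also read apart. For the genes that are lower on Day06, the mean log2 CPM was 7.28, 7.22 and 7.24 in siKmt2d, 7.07, 7.08 and 6.99 in nt and 7.01 to 7.15 in Mock, with siKmt2d above every control library (difference 0.19, exact permutation p = 0.0208). The genes that are higher on Day06 differed by -0.04 in their mean (exact permutation p = 0.354). Both p-values count each Mock column as a library, and neither was repeated with the Mock columns averaged. The first is the smallest that 48 arrangements can give. Calls of single genes were spread otherwise. Of the 321 genes higher on Day06, 49 were called lower than Mock and 7 higher, and 8 lower than nt and 4 higher. Of the 347 genes lower on Day06, 10 were called higher than Mock and 8 lower, and 3 higher than nt and 1 lower. Over all tested genes, 4.38% were called lower and 1.46% higher than Mock, and 0.597% lower and 0.365% higher than nt. Among the 33 siRNAs, siKmt2d ranked 25 from the highest score, siEp300 had a mean of 1.01 and siWdr5, the lowest, 0.517. The highest means were those of siPou5f1 (1.85), which targets the reprogramming factor gene Oct4 itself, and siNcor1 (1.73), both above Day06. The score gives a likeness to Day06 on these genes alone. The siKmt2d mean thus lay near the untransfected Day06 libraries, and the nt libraries scored above 28 of the 33 siRNAs.

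**Figure D5:**
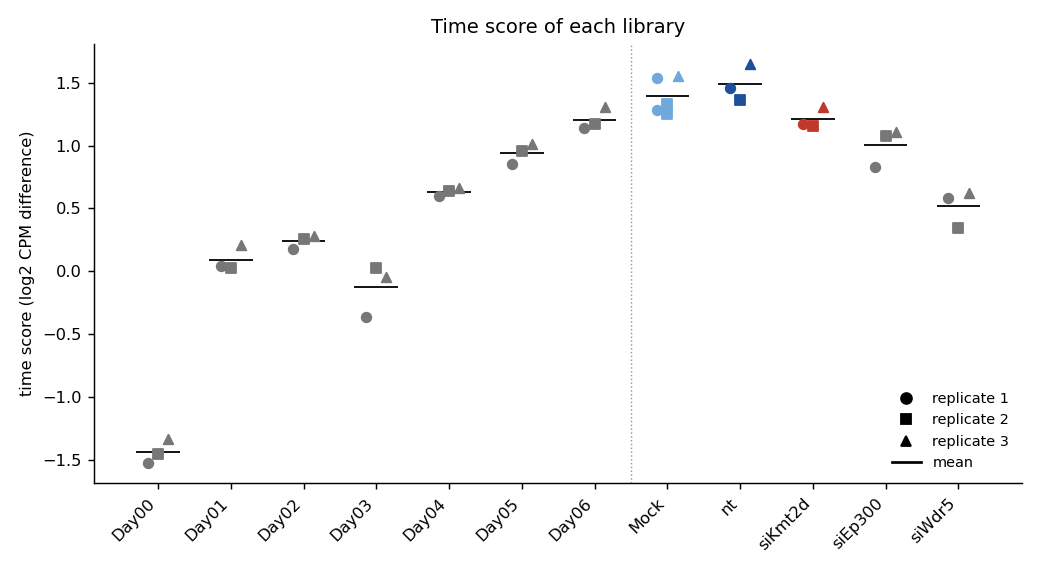
Time score of each library (mean log2 CPM of the genes higher on Day06 minus that of the genes lower) for the untransfected days, Mock, nt, siKmt2d, siEp300 and siWdr5; points are libraries and bars are group means. The score is -1.44 on Day00 and 1.21 on Day06 with a dip on Day03, and siKmt2d at 1.21 sits below nt at 1.49 and above siEp300 at 1.01.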

How the data were processed

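The authors mapped CEL-Seq2 reads with Bowtie2 to mm10 (GENCODE vM13) and deposited unnormalized UMI counts per gene symbol, and log2 values normalized by size factors with the batch regressed out. Conditions come from column names. Of 129 libraries with counts, 127 were used. The 2 unused columns, siMtf1 replicate 3 and 1 of the 2 Mock columns of replicate 3, have no counterpart in the log2 table, and the Mock column kept is the one whose counts correlate with the log2 column of that name. The members and the 24 gene lists were chosen with earlier results of these data known. Counts were tested with edgeR 4.0.16 (quasi-likelihood, TMM, filterByExpr by condition, condition and replicate terms over 127 libraries, 83 residual degrees of freedom, Benjamini-Hochberg, threshold 0.05), and 3013 genes passed the filter. Genes named against nt were called, reached 50 CPM in a group and had 1 sign in each replicate, up to 12 per direction by fold change, with 5 for Mock and the other siRNAs and 3 for siWdr5 and siEp300. Further called or listed genes were named after their values were seen. The replicate number was used as a block because it is the sequenced pool. Libraries of 1 number deviated together only weakly (median r 0.0195, 0.0339 and 0.205 for replicates 1, 2 and 3, -0.031 between numbers). The calls depend on this choice, since 22 of the 29 against nt were lost without the block. Standard errors come from the test statistic. Copies were found with blastn 2.17.0 (90% identity over 200 bases covering 50%, or 100 bases covering 80%, of the last 600 bases). Alternatives were RLE scaling, DESeq2 1.42.0, no filter, no block, limma 3.58.1 on the deposited log2 values, fits to the libraries compared, nt and Mock together, and leaving out each replicate. Scripts were tested on simulated data. Total counts ran from 29656 to 235292 per library.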

Additional observations from a re-analysis of the deposited data

Results flagged for a closer look

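The 5 Mock libraries were checked for a library far from the rest in each of 53 named genes and in the time score, and 8 of these 54 values stood out. The cut-off flags about 1 in 20 sets of normally distributed values. Several of these genes had few counts and some were chosen by their difference from Mock, so 8 of 54 cannot be set against that rate. Adamts5 reached 74.6 CPM in the Mock library of replicate 3 and was 0 in the other Mock libraries. In that library Gm26384 (1120 CPM, next highest 378) and E030024N20Rik (179 CPM, next 51.6) were also high, and Zmat2 was low (224 CPM, next lowest 348). In the first Mock library of replicate 1, Lxn was high (51.6 CPM, next 14.9) and Crim1 was low (0 CPM, next 24.8). In the second of replicate 1, C330021F23Rik was high (206 CPM, next 59.7). In the second of replicate 2, Ccnd2 was high (2284 CPM, next 1579). Of these genes, Zmat2, Lxn, Crim1 and E030024N20Rik carry a call of siKmt2d against Mock given above.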

How the results depend on the processing

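Of 553 repeats of a named gene's test under another setting, 324 kept the call, 229 lost it and none reversed, which the choice of genes called with 1 sign in each replicate largely fixes. Genes called against nt numbered 29, and 10 to 21 with a replicate left out, 70 in a fit to the compared libraries, 135 with nt and Mock together and 0 by limma on the deposited log2 values (374 of 10568 at an unadjusted p under 0.05). Without the filter on low counts, 23 genes were called against nt, where 12 of the 29 lost their call, 54 genes were called against Mock, 235 against the other siRNAs (228 of them higher), 178 against siWdr5 and 30 against siEp300. By limma these comparisons gave 1, 0 (294 unadjusted), 45 and 2 genes. With a replicate left out they gave 72 to 84, 15 to 35, 122 to 312 and 18 to 35. With copies summed, chosen after the data were seen, they gave 104 against Mock, 31 against the other siRNAs and 36 against siEp300. Without the replicate block the calls fell to 7 against nt, 47 against Mock, 10 against the other siRNAs, 193 against siWdr5 and 16 against siEp300. DESeq2 called 39 genes against nt, 19 higher and 20 lower, and 2 of 27 named genes lost their call. It gave no adjusted p for 9 of the 10 genes named against Mock, 8 of 10 against the other siRNAs, all 6 against siEp300 and 2 of the 29 against nt. The time score difference of -0.24 was -0.28 against nt alone, -0.21 against Mock alone, -0.18 with Day03 genes and -0.21 to -0.27 with a replicate left out. With nt or Mock alone or a replicate left out the design cannot reach 0.05, so these p-values say nothing of stability. The causes of lost calls were not tested. Libraries of 87602 to 183133 counts leave Kmt2d and most pluripotency genes too shallow to test.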

Other observations

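A set of 52 genes was called in 1 direction both against Mock and against the other siRNAs, and most of them were not called against nt. The comparisons share the siKmt2d libraries, and the genes named here were chosen after their values were seen. Tead1, a transcription factor of the Hippo pathway, was at 269.7, 258 and 269 CPM in siKmt2d, 183, 135 and 57.2 CPM in nt and 25.8 to 223 CPM in Mock. Each siKmt2d library was above all control libraries, and the log2 fold change was 1.16 against Mock (adjusted p = 0.0314), 0.81 against the other siRNAs (adjusted p = 0.0175) and 1.25 against nt (adjusted p = 0.0582). Ncl, which encodes the nucleolar protein nucleolin, was at 2036, 1733 and 1608 CPM in siKmt2d and 927 to 1216 CPM in Mock (0.73, adjusted p = 0.000227), but at 1565 to 1805 CPM in nt (0.08, adjusted p = 0.891). Its direction was thus the opposite of that of the Npm1 family, also nucleolar. The splicing regulator gene Hnrnpdl had its highest siRNA mean in siKmt2d (0.89 against Mock, adjusted p = 0.0433).

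Among genes that were lower, Uqcrh, a subunit of respiratory complex III, was at 579.8, 541 and 624 CPM in siKmt2d, 853 to 1232 CPM in nt and 1043 to 1599.9 CPM in Mock (-1.18 against Mock, adjusted p = 1.59e-06). The groups were apart from both controls, with -0.71 against nt (adjusted p = 0.0629). The histone variant gene H2afz was at 1483, 1622 and 1712 CPM in siKmt2d, 2048 to 2165 CPM in nt and 2472 to 3315 CPM in Mock (-0.86 against Mock, adjusted p = 4.8e-06). Ly6a, the surface antigen Sca-1, was at 458, 369 and 391 CPM in siKmt2d, 605 to 683 CPM in nt and 619 to 721 CPM in Mock (-0.72 against Mock, adjusted p = 0.0239). Every siKmt2d library was below every control library for these genes too, although neither was called against nt (adjusted p = 0.271 and 0.147). Uqcrh, H2afz and Ly6a have near-identical copies, and with the copies summed all were called lower than Mock as well (-1.20 for Uqcrh, adjusted p = 4.59e-06, -0.84 for H2afz, adjusted p = 3.67e-05, -0.76 for Ly6a, adjusted p = 0.0183).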
